A study of Mus musculus with 6 samples.

Results

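The striated muscle myosin heavy chains are the motor proteins of the thick filament, and their genes Myh1, Myh2, Myh3, Myh4, Myh6, Myh7, Myh8 and Myh13 were examined here in C2C12 cells, a mouse line that grows as myoblasts and can fuse into contractile fibres. Members were the probe sets, that is the groups of short array probes made for a transcript, whose only gene symbol in the array annotation is one of these 8 genes. The rule found 11 probe sets of 7 genes among 45037 probe sets tested. Of these, Myh1 had 3, Myh4 and Myh6 had 2 each, and Myh2, Myh3, Myh7 and Myh8 had 1 each. For Myh13 no probe set carried its symbol alone in the annotation used, so it has no value here. A further 2 probe sets name both Myh6 and Myh7 and were counted toward neither.

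Total RNA was measured on 6 Affymetrix arrays at day 3, 3 from untreated cells and 3 from cells given 10 µM 5-azacytidine (5AC), a cytidine analogue that traps DNA methyltransferases, for 3 days. Both groups were plated at 1500 cells per square centimetre, were kept in DMEM with 10% newborn calf serum and are described as subconfluent. All 6 arrays come from this 1 cell line, and the labels do not say whether replicates were separate cultures, so each p-value reflects array-to-array spread alone, and that spread may be technical. In a bulk RNA sample, fewer cells of a type and less RNA per cell cannot be told apart, which applies to every level below.

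A muscle myosin is built of heavy chains, whose heads bind actin and split ATP and whose tails pack into the thick filament, and of light chains that sit on the neck of each head. Each heavy chain gene is used in particular fibres and stages: Myh3 (embryonic) and Myh8 (neonatal) in developing and regenerating muscle, Myh2, Myh1 and Myh4 in the adult fast fibres IIa, IIx and IIb, Myh7 in slow fibres and the heart, Myh6 in the heart, and Myh13 in the muscles of the eye. The fast and developmental genes lie side by side in a cluster, and Myh6 and Myh7 lie next to each other on another chromosome.

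The 250 bases before the annotated start of the 5 fast and developmental genes with a probe set are printed because the genes lie in 1 cluster. Of these, Myh1, Myh2 and Myh4 share a stretch of sequence, Myh8 has a near copy and Myh3 has none. They are RefSeq sequences of mouse assembly GRCm38.p6, on the plus strand of chromosome 11, at chr11:67078050-67078299 for Myh3, chr11:67276874-67277123 for Myh8, chr11:67199852-67200101 for Myh1, chr11:67170777-67171026 for Myh2 and chr11:67237562-67237811 for Myh4. Capitals mark the letters TATAAA, read on this strand, and a run of 20 letters, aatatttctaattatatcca, with at most 2 differences.
Myh3: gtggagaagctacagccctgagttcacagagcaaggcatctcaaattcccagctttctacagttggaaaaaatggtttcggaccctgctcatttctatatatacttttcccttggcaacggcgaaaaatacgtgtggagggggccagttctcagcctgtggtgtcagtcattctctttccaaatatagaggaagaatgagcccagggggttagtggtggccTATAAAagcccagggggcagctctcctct
Myh8: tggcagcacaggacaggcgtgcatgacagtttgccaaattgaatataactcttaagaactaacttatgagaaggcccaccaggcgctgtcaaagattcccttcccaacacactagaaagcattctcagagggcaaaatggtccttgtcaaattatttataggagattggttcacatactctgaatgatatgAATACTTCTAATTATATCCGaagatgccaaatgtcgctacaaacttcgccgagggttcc
Myh1: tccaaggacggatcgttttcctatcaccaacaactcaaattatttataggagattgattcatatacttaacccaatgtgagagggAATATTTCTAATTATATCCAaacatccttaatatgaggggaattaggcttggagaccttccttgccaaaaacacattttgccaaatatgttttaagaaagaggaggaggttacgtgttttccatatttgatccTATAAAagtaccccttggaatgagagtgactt
Myh2: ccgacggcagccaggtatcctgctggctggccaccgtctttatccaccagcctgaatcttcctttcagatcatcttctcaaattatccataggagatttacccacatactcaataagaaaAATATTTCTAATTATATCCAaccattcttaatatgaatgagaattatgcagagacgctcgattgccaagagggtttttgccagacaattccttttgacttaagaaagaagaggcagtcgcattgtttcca
Myh4: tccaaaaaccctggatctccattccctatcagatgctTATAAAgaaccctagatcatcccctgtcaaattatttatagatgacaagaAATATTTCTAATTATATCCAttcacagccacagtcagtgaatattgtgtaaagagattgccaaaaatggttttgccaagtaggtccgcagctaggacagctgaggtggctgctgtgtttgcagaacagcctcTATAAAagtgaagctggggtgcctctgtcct
The run was found by a search for the longest stretch that at least 3 of the member genes have in common. It stood whole before Myh1 (position -165 from the start), Myh2 (-130) and Myh4 (-163). These were the only 3 of 32851 RefSeq promoter windows of this length that held it, 0.00913%. Its presence in these 3 was fixed by the search, so the share is a description and no test. Myh8 held a copy with 18 of 20 letters at -59, aatacttctaattatatccg, with the differences T5C and A20G counted from the 5′ end of the run. The closest stretches matched in 13 letters before Myh7, 11 before Myh3, 10 before Myh6 and 9 before Myh13.

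The RNA of 4 of the 7 measured genes was higher in treated cells: Myh1, Myh3, Myh7 and Myh8. Mean intensity rose 12.1-fold for Myh1 (1427520_a_at) and 5.85-fold for Myh3. Myh7 and Myh8 had untreated means of 6.88 and 4.76, near the floor, and no fold is given for them. No member probe set was lower past the threshold, and Myh2, Myh4 and Myh6 did not pass it. The test was limma's moderated test on log2(intensity + 1) with Benjamini-Hochberg adjustment over all 45037 probe sets and a threshold of 0.05. By it, 5 of 11 member probe sets were higher and 0 lower, where 8.15% of all probe sets were called higher and 8.75% lower. At an unadjusted p under 0.05, 6 members were higher and 0 lower, beside 15.0% and 15.2% of all probe sets. The groups did not overlap, with every treated array above every untreated one, for 6 of 11 member probe sets and for 18.3% of all. The median log2 change was 1.06 over the members and -0.01 over all probe sets. Among all probe sets, 3671 were called higher. That number was 2131 without untreated replicate 1, 1956 without untreated replicate 2, and 1681, 1764 and 1982 without 5AC replicates 1, 2 and 3.

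Many members were dim. The median probe-set mean on these arrays was 20.7, and below it the change on the log2 scale depends on the number added before the logarithm. With 16 added in place of 1, the same number of members, 5, were called higher and 0 lower, where 10.8% of all probe sets were called higher. The members' median change was then 0.22. Detection calls were not used here, so a low intensity cannot be told from absence of the RNA.

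**Figure D1:**
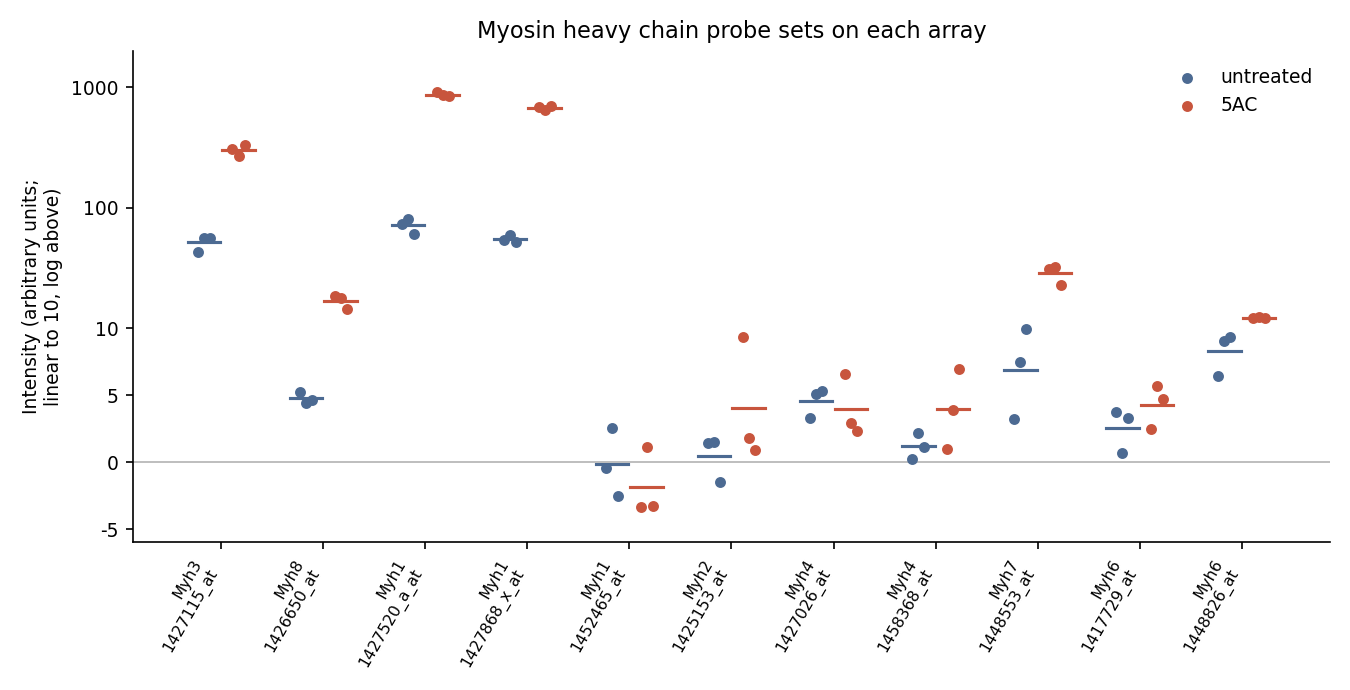
Intensity of each of the 11 member probe sets on the 3 untreated (blue) and 3 5AC (red) arrays, in arbitrary units, on an axis that is linear up to 10 and logarithmic above. Short bars are group means. Myh3, Myh8, Myh7 and the first 2 Myh1 probe sets stand apart between groups, and the third Myh1 probe set lies around 0 in both.

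Among the developmental heavy chains, Myh3 is the first made in embryonic muscle. Its probe set 1427115_at read 42.7, 55.6 and 56.3 on the untreated arrays and 308, 269 and 328 on the 5AC arrays. The lowest treated array was well above the highest untreated one. The group means (n = 3) were 51.6 and 301.7 with SDs of 7.67 and 30.1. The log2 change was 2.53 ± 0.15 (SE; 95% interval 2.16 to 2.91; limma adjusted p 0.00168. With 16 added the change was 2.24.

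Myh8, the heavy chain of the neonatal stage, was dimmer. Its probe set 1426650_at read 5.27, 4.39 and 4.61 in untreated cells and 18.3, 17.7 and 14.4 after 5AC. The groups did not overlap, yet both lay below the median probe-set mean. The log2 change was 1.63 ± 0.12 (95% interval 1.32 to 1.94; limma adjusted p 0.00262). It was 0.66 with 16 added and was called there too (limma adjusted p 0.00114). The size of the Myh8 change therefore depends on the scale and its direction did not.

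Myh1 is the heavy chain of the adult fast IIx fibre. Probe set 1427520_a_at read 73.1, 80.5 and 60.8 in untreated cells and 904, 856 and 837 in treated cells. Probe set 1427868_x_at read 54.3, 59.3 and 51.9 and then 681, 648 and 698. In both, the treated arrays lay close together and far above the untreated ones. Their log2 changes were 3.59 ± 0.12 (95% interval 3.28 to 3.90; limma adjusted p 0.000728) and 3.59 ± 0.08 (3.38 to 3.80; limma adjusted p 0.00031). With 16 added they were 3.34 and 3.28.

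The third Myh1 probe set, 1452465_at, read near 0. It read -0.430, 2.57 and -2.51 in untreated cells and -3.32, 1.12 and -3.29 after 5AC, so 4 of its 6 values were at or below 0, which the deposited values can be. Its log2 change was -0.25 ± 0.62 (95% interval -1.83 to 1.33; limma adjusted p 0.841), and 0.36 without untreated replicate 2. The annotation gives this probe set and 1427520_a_at the same reference sequence entry, so these 2 of the 3 are not readings of separately catalogued transcripts. The 2 nonetheless disagreed in level, and the change of 1427520_a_at minus that of 1452465_at was 3.84 ± 0.64 (3.38 ± 0.08 with 16 added). The two-sided exact permutation p was 0.1 on both scales, the smallest this design can give. With so little signal, 1452465_at gives no measure of change to set against the others. The changes of the 2 bright Myh1 probe sets differed by -0.0034 ± 0.083 (two-sided exact permutation p = 1 over the 6 arrays). The annotation gives 1427868_x_at the same reference sequence entry as 1427867_at of Myhas, an antisense gene of the cluster. Whether 1427868_x_at reads Myh1 alone was not tested.

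The other adult fast heavy chains were at the floor of the arrays. Myh2, the IIa chain, read 1.45, 1.50 and -1.50 in untreated cells and 9.37, 1.78 and 0.873 after 5AC. Of the treated arrays 1 was high, 1 lay just above the untreated values and 1 among them. The log2 change was 1.05 ± 0.76 (95% interval -0.88 to 2.97; limma adjusted p 0.437), and 0.21 with 16 added.

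Myh4, the IIb chain, is the fastest of the adult types. Probe set 1427026_at read 3.29, 5.09 and 5.34 and then 6.59, 2.91 and 2.33. Probe set 1458368_at read 0.245, 2.19 and 1.13 and then 0.985, 3.88 and 6.94. The groups overlapped in both. The log2 changes were -0.25 ± 0.36 (95% interval -1.16 to 0.66; limma adjusted p 0.714) and 1.06 ± 0.62 (-0.51 to 2.64; limma adjusted p 0.332). These intervals include changes of more than 2 on the log2 scale for Myh2 and for 1458368_at, so a change of that size in either could not be told from none at this signal.

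Myh7, the slow and beta-cardiac chain, read 3.20, 7.47 and 9.97 in untreated cells and 30.7, 32.3 and 23.0 in treated cells (1448553_at). Every treated array was above every untreated one, and the untreated arrays were spread over a wide relative range. The log2 change was 2.01 ± 0.39 (95% interval 1.02 to 2.99; limma adjusted p 0.0260), and 0.97 with 16 added (limma adjusted p 0.0033). The call was lost without untreated replicate 2 (limma adjusted p 0.0729) and without 5AC replicates 1, 2 and 3 (0.0903, 0.0915 and 0.0649). The change then stayed between 1.91 and 2.15.

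Myh6 is the alpha-cardiac chain. Probe set 1448826_at read 6.43, 9.03 and 9.35 and then 12.04, 12.37 and 12.17. Probe set 1417729_at read 3.77, 0.662 and 3.30 and then 2.44, 5.67 and 4.75. The groups did not overlap for the first and overlapped for the second. Their log2 changes were 0.53 ± 0.15 (95% interval 0.15 to 0.90; limma adjusted p 0.0728) and 0.65 ± 0.50 (limma adjusted p 0.462). The first passed the threshold with values below 10 set to 10 (0.29, limma adjusted p 0.000508) and with 1 probe set per gene tested (limma adjusted p 0.0456). All its untreated values lay below 10, so the floor made them equal and removed their spread. The pass with the floor is therefore not read as a sign of change. The pass with 1 probe set per gene came from values without that floor. It lay close to the threshold, with 18193 probe sets tested.

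The 2 probe sets that name both Myh6 and Myh7 cannot be assigned to either gene, and neither passed the threshold. Probe set 1448554_s_at read 2.76, 1.46 and 12.1 and then 13.0, 7.11 and 17.3, a log2 change of 1.37 (limma adjusted p 0.276). Probe set 1448827_s_at read 2.70, 1.97 and -1.79 and then -1.92, -0.0401 and -4.44, a log2 change of -1.15 (limma adjusted p 0.213).

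**Figure D2:**
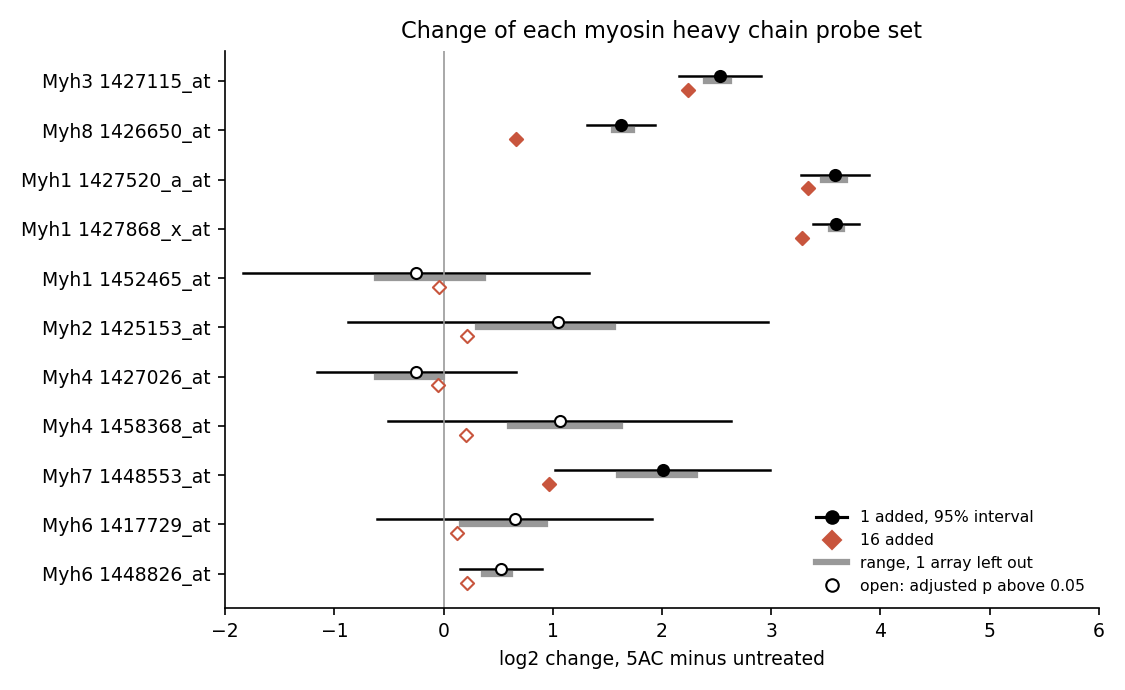
Log2 change, 5AC minus untreated, of each member probe set: circles with 1 added before log2 and their 95% interval, diamonds with 16 added, grey bars the range when each array was left out in turn, and filled symbols for an adjusted p under 0.05. The 5 filled circles lie between 1.63 and 3.59, and the diamonds of the dim probe sets lie nearer to 0.

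The changes of the called members were set against each other on the same arrays, using the brightest probe set of each gene. Pairs with Myh2, Myh4 or Myh6 are not read, since those did not pass the threshold and lay near the floor. The called Myh7 and Myh8 were near the floor in untreated cells too. The design cannot give an exact permutation p under 0.1, and no pair passed after Benjamini-Hochberg adjustment over all 21 pairs of members (0.162 or more, and 0.105 or more with 16 added). The Myh3 change minus that of Myh1 was -1.06 ± 0.21 (SE; exact permutation p = 0.1), and -1.10 ± 0.18 with 16 added (exact p = 0.1). Both genes were well above the floor in treated cells. The differences that involve the dim Myh7 and Myh8 depended on the scale in size or exact p, and their direction did not. Myh1 minus Myh7 was 1.58 ± 0.49, and 2.37 ± 0.21 with 16 added. Myh8 minus Myh1 was -1.96 ± 0.16, and -2.68 ± 0.11 with 16 added. Myh8 minus Myh3 was -0.91 ± 0.26, and -1.58 ± 0.17 with 16 added. For these pairs the exact permutation p was 0.1 on both scales. Myh3 minus Myh7 was 0.53 ± 0.37 (exact p = 0.3), and 1.27 ± 0.18 with 16 added (exact p = 0.1). Myh8 minus Myh7 was -0.38 ± 0.47 (exact p = 0.8), and -0.31 ± 0.15 with 16 added (exact p = 0.1).

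The windows before the starts were searched for motifs linked to muscle genes. The E-box, CANNTG, is the site of MyoD and its relatives, and the MEF2 consensus that of the MEF2 factors. The TATA box is given as the letters TATAAA, and CpG is the pair of letters that DNA methyltransferases modify. The first 3 were searched on both strands, and positions count back from the start. A match is a description of letters only.

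An E-box stood before Myh3 (-191), Myh8 (-32), Myh4 (-221 and -67), Myh13 (-214 and -192), Myh6 (-13) and both annotated starts of Myh7, and none of these letters stood before Myh1 or Myh2. At least 1 was present in 66.2% of the 32851 windows. The MEF2 consensus stood before Myh8 (-99), Myh1 (-211) and Myh4 (-182), and in 2.92% of all windows. TATAAA, found in 12.4% of windows, lay near the start of Myh3 (-29), Myh1 (-32) and Myh4 (-31). Further matches lay at -213 before Myh4 and, on the other strand, at -96 before Myh8, -208 before Myh1 and -179 before Myh4, where they overlap the MEF2 match. Myh1 and Myh4 thus held the run, the MEF2 consensus and a TATAAA near the start alike. Both Myh4 probe sets read near the floor, so whether its RNA changed could not be told. The part of these motifs in any change was not tested.

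The number of CpG in the window varied between the genes. There were 4 before Myh3, 6 before Myh8, 3 before Myh1, 6 before Myh2, 1 before Myh4, 1 before Myh13, 2 and 5 before the starts of Myh7, and 2 before Myh6. Over all windows the quartiles were 2, 6 and 16, and 53.7% held 6 or fewer. DNA methylation was not measured on these arrays.

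**Figure D3:**
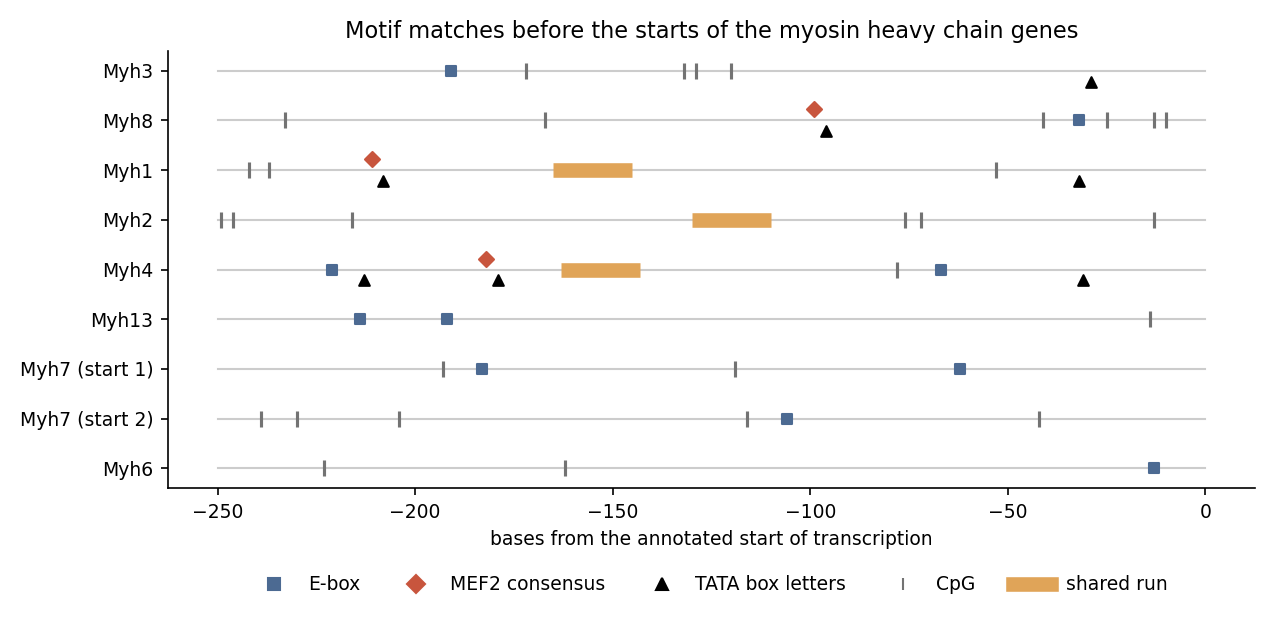
Positions of the motif matches and of the run shared by Myh1, Myh2 and Myh4 in the 250 bases before each annotated start, with the start at 0. Squares are E-boxes, diamonds the MEF2 consensus, triangles TATAAA on either strand, ticks CpG and the broad bars the shared run; the windows held 1 to 6 CpG each.

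The genes on either side were read as well, a comparison added after the members' values had been seen. In the order of the RefSeq annotation, the cluster on chromosome 11 runs Myh3, Myh2, Myh1, Myhas, Myh4, Myh8 and Myh13. Myh2 lies between Myh3 and Myh1, and Myh4 between Myh1 and Myh8. Whether the 2 genes in between changed could not be told at their signal. Myhas, an antisense gene of the cluster, has its own probe set 1427867_at, which read 44.1, 64.2 and 56.4 in untreated cells and 203, 158 and 188 after 5AC. The treated values were all above the untreated ones, and the log2 change was 1.73 ± 0.18 (limma adjusted p 0.00487). The annotation gives that probe set the same reference sequence entry as 1427868_x_at of Myh1, so these 2 probe sets are catalogued under 1 sequence.

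Of the 8 genes flanking the cluster, 4 on each side, 5 had a probe set. Their log2 changes ran from 0.02 to 0.49, and 1 passed the threshold, Sco1, a factor for copper delivery in mitochondria (0.44 ± 0.10, limma adjusted p 0.0453). The Sco1 call was lost when any one of the 6 arrays was left out and with quantile normalization or median centring (limma adjusted p 0.0559 to 0.131). Around Myh6 and Myh7, all 8 flanking genes were measured, with log2 changes from -0.39 to 0.68. There Ngdn was higher (0.68 ± 0.09, limma adjusted p 0.00814) and Thtpa lower (-0.39 ± 0.08, limma adjusted p 0.0296). Over all genes by their brightest probe set, 11.6% were called higher and 10.8% lower. Nothing is therefore read from the number of flanking genes called. The Thtpa call was lost without any one of the untreated replicates and without 5AC replicates 1 and 2 (limma adjusted p 0.0579 to 0.102).

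**Figure D4:**
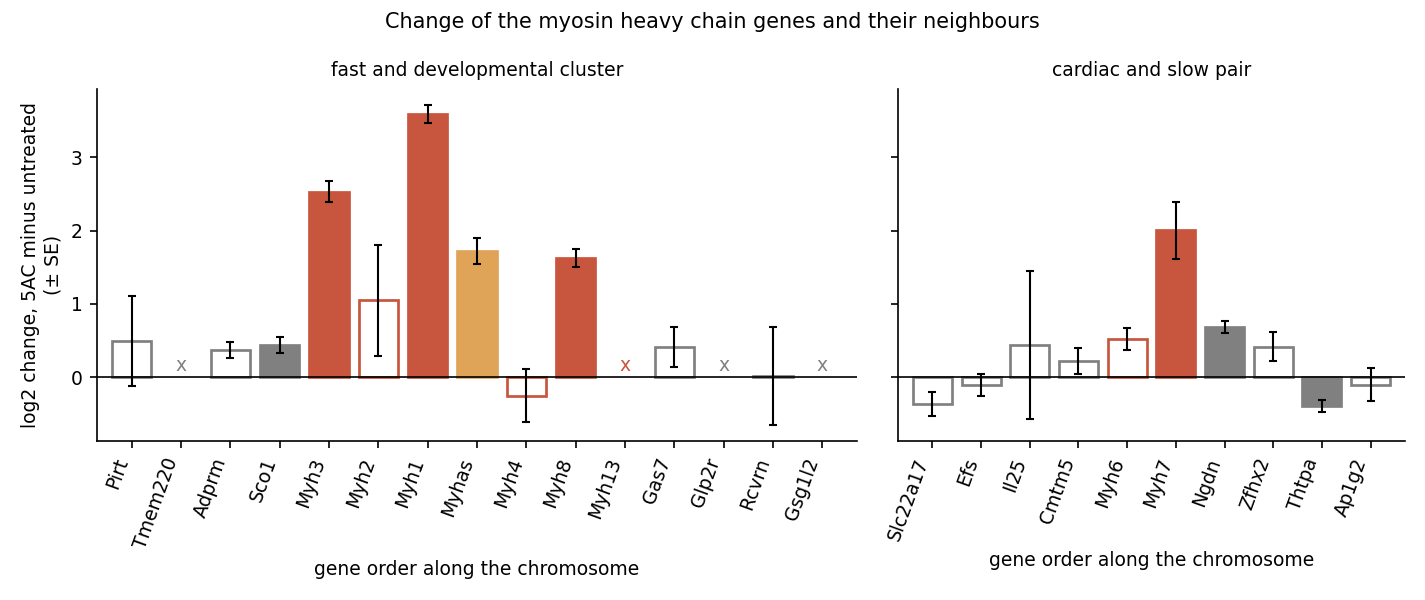
Log2 change, 5AC minus untreated, with its SE, of the myosin heavy chain genes (red) and of the genes around them (grey; Myhas in yellow), each by its brightest probe set in gene order; filled bars have an adjusted p under 0.05 and an x marks a gene with no probe set of its own. With 1 added before log2, as drawn, the bars of Myh1, Myh3, Myh8 and Myh7 rise above those of all measured flanking genes. The changes of those flanking genes lie between -0.39 and 0.68. With 16 added, the dim Myh8 did not stand above the flanking gene Ngdn (0.66 for each).

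The proteins that work with the heavy chains were read from 10 gene lists, which overlap, each gene by its brightest probe set. Together they held 120 genes, of which 113 were measured, 40 were higher and 8 lower, against 11.6% of all 18193 genes higher and 10.8% lower. Without untreated replicate 1, 4 were lower. Without untreated replicate 2, 5AC replicate 1 or 5AC replicate 2, 5 were lower in each case. At an unadjusted p under 0.05, 50 were higher and 12 lower, beside 19.8% and 17.3% of all genes. Over all genes the median log2 change was 0.01.

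The thin filament is the actin track on which myosin pulls. Of its 19 genes 14 rose, 1 fell and 4 missed the threshold, with a median log2 change of 1.46. Lmod2, which builds up actin filaments, rose from 6.20 ± 0.90 to 67.0 ± 8.03 (SD, n = 3; log2 change 3.24 ± 0.14, limma adjusted p 0.000975; 1.90 with 16 added). Cardiac actin Actc1, also the actin of embryonic muscle, rose from 323.6 to 1716 (2.42 ± 0.15, limma adjusted p 0.00188). Among the fast troponins, Tnni2, the inhibitory subunit, rose from 24.1 to 143.5 (2.54 ± 0.21), and Tnnt3, which binds tropomyosin, from 32.0 to 187 (2.54 ± 0.19). A dim second Tnni2 probe set, 1438608_at, did not pass the threshold (limma adjusted p 0.0667). The 1 lower gene was Tnnt2, the cardiac and embryonic troponin T, which fell from 815 to 542 (-0.59 ± 0.07, limma adjusted p 0.00832).

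The light chains, which bind the neck of the heavy chain, and the myosin-binding proteins were mixed. Of 11 genes 4 rose and 7 missed the threshold, with a median of 0.24. Mylpf, the fast regulatory light chain, rose from 387 to 1632 (2.09 ± 0.14). Myl4, the embryonic and atrial light chain, rose from 42.6 to 137.6 (1.68 ± 0.18), and Myl1, the fast essential chain, from 501 to 1394 (1.48 ± 0.10). Mybph, myosin-binding protein H, rose from 75.8 to 194 (1.34 ± 0.14).

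Of 17 measured genes of the Z-disc, the M-band and titin, which anchor and align the filaments, 8 rose, 0 fell and 9 missed the threshold, with a median of 0.84 (0.39 with 16 added). At an unadjusted p under 0.05 in limma, 10 were higher and 0 lower. Smpx, a small muscle protein, rose from 16.8 to 219 (3.64 ± 0.15, limma adjusted p 0.000942; 2.84 with 16 added). Titin, Ttn, the spring along the thick filament, rose from 123 to 519 (2.07 ± 0.09). Myoz2 rose from 11.6 to 42.8 (1.79 ± 0.22; 1.08 with 16 added) and Csrp3 from 13.9 to 39.3 (1.44 ± 0.11; 0.89 with 16 added), both Z-disc proteins.

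Factors that fold, assemble or break down myosin were mixed: of 8 measured, 3 rose, 1 fell and 4 missed the threshold, with a median of 0.12. Trim63, a ubiquitin ligase of thick filament proteins, rose from 7.67 to 26.2 (1.67 ± 0.16, limma adjusted p 0.00410; 0.84 with 16 added). Fbxo32, the ligase atrogin, rose from 63.0 to 131 (1.05 ± 0.16, limma adjusted p 0.0142). Its call was lost without untreated replicate 2 and without 5AC replicates 1 and 3 (limma adjusted p 0.0537 to 0.0596), though its other probe sets 1417522_at and 1435265_at were also higher (1.59 and 0.82). Fhl1 rose from 2540 to 3450 (0.44 ± 0.06, limma adjusted p 0.0114), with a call lost without untreated replicate 2 and 5AC replicate 1 (0.0506 at most). Trim54, which sits on microtubules and the sarcomere, fell from 104 to 67.5 (-0.63 ± 0.15, limma adjusted p 0.0448). That call was lost without any one of the untreated replicates and without 5AC replicates 1 and 2 (0.0777 to 0.131).

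The partners were also sorted by fibre type and stage. Of 11 fast-type partners 6 rose and 5 missed the threshold (median 1.22), and of 9 slow-type partners 5 rose and 4 did not pass (median 0.86). The fast calcium sensor Tnnc2 rose from 135.5 to 680.4 (2.33 ± 0.16), and the slow and cardiac one, Tnnc1, from 337 to 777 (1.21 ± 0.13). The slow inhibitory troponin Tnni1 rose from 105.6 to 348.7 (1.74 ± 0.19). Casq2, the calcium store protein of slow and cardiac muscle, rose from 54.9 to 161.9 (1.59 ± 0.25, limma adjusted p 0.0142), with the call lost without any one 5AC replicate (0.0512 to 0.0597).

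Of 7 embryonic and neonatal genes 3 rose, 1 fell and 3 missed the threshold, with a median of -0.10, beside the rise of Myh3 and Myh8. With 16 added 3 were lower. Chrng, the foetal subunit of the acetylcholine receptor, rose from 26.6 to 89.6 (1.74 ± 0.23, limma adjusted p 0.00871), with Actc1 and Myl4 as above. Its dim probe set 1427728_at did not pass the threshold (-0.16, limma adjusted p 0.847).

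**Figure D5:**
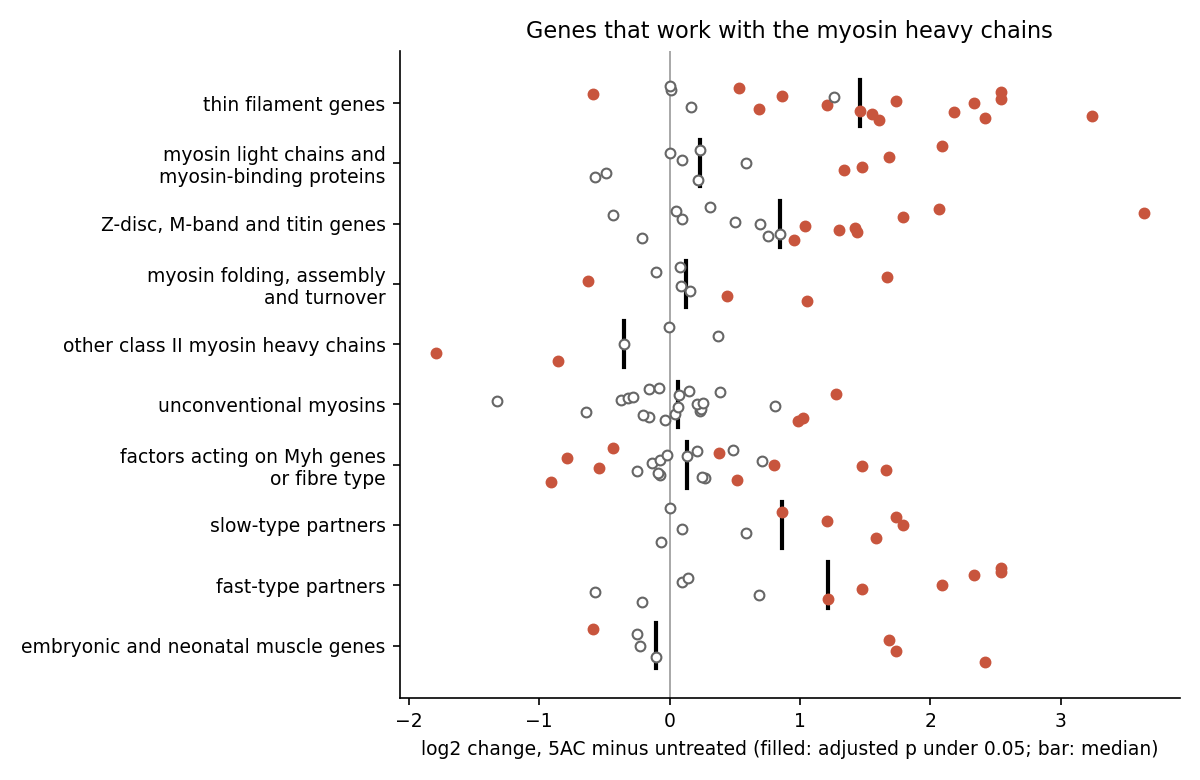
Log2 change, 5AC minus untreated, of each measured gene of the 10 lists, by its brightest probe set; filled points have an adjusted p under 0.05 and black bars are list medians. The thin filament and fast-type medians are 1.46 and 1.22, and the point farthest right is Smpx at 3.64.

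Factors reported to act on heavy chain genes or fibre type changed in both directions: of 21 measured, 5 rose, 4 fell and 12 missed the threshold, with a median of 0.13. Myog, the myogenic factor of differentiation, rose from 397 to 1100.5 (1.47 ± 0.11, limma adjusted p 0.00267). Myf6, its relative in fibres, rose from 13.6 to 42.2 (1.66 ± 0.40, limma adjusted p 0.0498), a call lost with quantile normalization and when any one array other than untreated replicate 1 was left out (0.0519 to 0.144). Nfatc1, a calcium-dependent factor of slow fibres, rose from 60.5 to 104.6 (0.80 ± 0.16, limma adjusted p 0.0269). That call was lost without any one array other than untreated replicate 3 (0.0551 to 0.0880).

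Myod1, which commits cells to muscle, fell from 508 to 349 (-0.54 ± 0.09, limma adjusted p 0.0147). The call was lost without untreated replicate 1 and without 5AC replicates 1 and 2 (limma adjusted p 0.0510 to 0.0621). Eya1, a transcription cofactor and phosphatase, fell from 214 to 114 (-0.91 ± 0.09, limma adjusted p 0.00455). Mef2c read 46.2 and 44.4 (-0.07 ± 0.15, limma adjusted p 0.808). Other probe sets of several genes named here did not pass the threshold: 1444083_at and 1446450_at of Ttn, 1425761_a_at and 1447084_at of Nfatc1, 1421727_at and 1443117_at of Eya1, 1457126_at of Myl4, 1459003_at of Fhl1, 1440424_at of Tnnt2 and 1447675_x_at of Myod1.

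The other class II heavy chains are those of smooth muscle and non-muscle cells and Myh7b. Of these 5 genes 2 fell, by their brightest probe sets, and 3 missed the threshold, with a median of -0.35. Myh10, a non-muscle chain, fell from 757.7 to 417.9 (-0.86 ± 0.08, limma adjusted p 0.00346), and its other probe set 1441057_at did not pass the threshold (-1.07, limma adjusted p 0.385). Myh9, another, read 4008 and 3996 (-0.01 ± 0.07, limma adjusted p 0.973), and its 4 other probe sets had changes of -0.08 to -0.45, none past the threshold. Myh14, also a non-muscle chain, had -0.35 ± 0.26 (limma adjusted p 0.447) and Myh7b, an ancient sarcomeric chain, 0.37 ± 0.22 (limma adjusted p 0.336).

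Myh11, the smooth muscle heavy chain, read 5.12 ± 0.473 in untreated and 0.793 ± 0.963 in treated cells (-1.79 ± 0.37, limma adjusted p 0.0311; -0.32 with 16 added). Both levels were far below the median probe-set mean, and a second probe set, 1418122_at, had a change of 0.86 (limma adjusted p 0.512). The Myh11 call was lost with values below 10 set to 10 and without any one untreated replicate or 5AC replicate 3 (0.0694 to 1).

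For each called member, the 3 non-member genes with the most similar log2 profile over the 6 arrays were listed by Euclidean distance among 11922 candidate genes, after centring on the untreated mean. Nearest to Myh3 (1427115_at) were Tnni2 (distance 0.211), Smpdl3a, a phosphodiesterase family member (0.309), and Mymx, the myoblast fusion protein myomixer (0.312). Mymx read 48.6 and 263.9 and changed by 2.43. Nearest to Myh1 (1427868_x_at) were Rpl39l (0.330), a ribosomal protein, Perp (0.354), a membrane protein, and Smpx (0.417). Nearest to Myh8 were Frmd4b (0.175), Mga, a partner of the factor MAX (0.211), and Bdh1, an enzyme of ketone bodies (0.252). Nearest to Myh7 were Apol7a (0.529), Tchh, the hair protein trichohyalin (0.649), and Myf6 (0.731). With 2 groups of 3 arrays, the distance reflects mainly the size of the change.

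The arrays were alike in level, with medians of 20.4 to 21.0. Log2 values correlated at 0.965 to 0.971 within groups and 0.949 to 0.954 between them, and no array stood apart. Marker lists were read for the cell types that could be present. Beside their counts, 11.6% of all genes were called higher and 10.8% lower (19.8% and 17.3% at an unadjusted p under 0.05 in limma). Of 5 myoblast markers 3 were lower (Myod1, Cdh15 and Msc) and 0 higher (4 and 0 at an unadjusted p in limma), and their summed intensity was 2722 to 2799 in untreated and 2056 to 2119 in treated cells. Of 5 fibre markers 3 were higher (Myog, Acta1 and Mymk), with a sum of 937 to 1171 in untreated and 2804 to 3087 in treated cells. The other fibre markers did not pass the threshold. Ckm read 28.6 and 42.9 (limma adjusted p 0.251), and Cav3 read 3.19 and 12.1 (limma adjusted p 0.183). The part of either list in the heavy chain changes was not tested. Of 10 cardiomyocyte markers 0 were higher and 0 lower by limma's adjusted p, and at an unadjusted p 1 was higher and 1 lower. Their sums were 263 to 267 and 248 to 259, beside the rise of Myh7. Nppa and Myl7 read 10.7 and 10.5 in untreated and 6.04 and 10.6 in treated cells. Myl2 and Gata4 read 7.71 and 22.1 in untreated and 11.8 and 35.1 in treated cells. The part of this list in the Myh7 change was not tested.

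Of 7 smooth muscle markers 2 rose (Actg2 and Acta2), 1 fell (Myh11) and 4 missed the threshold, with sums of 3299 to 4181 and 7043 to 7335. Epithelial markers were 3 higher of 6 (Krt8, Krt18 and Krt14), with sums of 157 to 201 and 3013 to 3324. Of 6 endothelial markers 1 fell (Emcn), beside 10.8% of all genes called lower, and nothing is read from that count. Of 6 macrophage and leukocyte markers 0 passed the threshold in limma and 0 had an unadjusted p under 0.05. No marker was at or below 0 on all 6 arrays. The part of these lists in the heavy chain changes was not tested.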

How the data were processed

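RNA was measured in C2C12 cells on 6 Affymetrix arrays, 3 untreated and 3 given 5AC, grouped by the sample labels. The table the authors deposited holds linear intensity values per probe set, some below 0. The submitters' processing notes list GCOS 1.4 and R 2.4.1 without saying what each did. How probes were summarized and normalized is not given in the sources used here. A scaling step may therefore have set the array levels.

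The table held 45101 probe sets, of which 64 controls were left out. The annotation gave 34945 probe sets 1 gene symbol and 932 several, and 9160 were unnamed here. Values below 0 were set to 0, and log2(intensity + 1) of all 45037 probe sets was fitted in limma 3.58.1 (lmFit, eBayes; R 4.3.3), two-sided, with Benjamini-Hochberg adjustment and a threshold of 0.05 (prior degrees of freedom 1.23). List genes were read from the same fit by the probe set with the highest mean. Differences between probe sets were tested with an exact permutation over the 6 arrays.

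Members and lists were chosen with earlier results of these data known. Named genes were every member, up to 4 called genes of each list by size of change, all other class II heavy chains, Myod1, Myog and Mef2c, and the 3 genes most like each called member; 1 gene of the rule is not reported here. Promoters and flanking genes were added after values were seen. RefSeq promoters were matched by symbol for 8 of the 8 genes. Alternatives were an offset of 16, a floor of 10, quantile normalization, median centring, a filter at 20 on dim probe sets, a replicate block, 1 probe set per gene, an intensity trend and leaving out each array.

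On simulated data with 45037 probe sets, 200 of them changed, 0% of changes of 0.5, 38.8% of changes of 1 and 51.5% of changes of 2 on the log2 scale were recovered, and 4 of 64 calls were false. The data themselves gave many more calls (3671 higher and 3942 lower), so the adjustment set a different p cutoff there. The simulated shares are therefore not the recovery in the data. Replicate numbers were checked for pairing: correlations of same-numbered deviations were -0.0682, 0.0288 and 0.0131, so the numbers were not taken to pair arrays.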

Additional observations from a re-analysis of the deposited data

How the results depend on the processing

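The changes of Myh3, Myh8 and both bright Myh1 probe sets kept their direction and their call in every alternative in which they were tested except the replicate block; Myh8 was not tested under the filter on dim probe sets. With the replicate number as a block, 0 member probe sets (from 5), 0 partner genes higher (from 40) and 0 lower (from 8) passed the threshold in limma, and neither did any of all 45037 probe sets. At an unadjusted p under 0.05 the block gave 7 members higher and 0 lower, 45 partner genes higher and 12 lower, and 5906 probe sets higher and 6154 lower. The called members then had limma adjusted p of 0.0548, and Myh7 0.101. The numbers were not shown to pair arrays, and the block leaves fewer degrees of freedom.

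Leaving out each array in turn gave 4 to 5 member probe sets higher and 0 lower, 30 to 35 partner genes higher and 4 to 6 lower. Changes that turned sign were those of 1452465_at of Myh1 (0.36 without untreated replicate 2, range -0.61 to 0.36), Mef2c (0.081 without 5AC replicate 2, range -0.18 to 0.081) and Myh9 (0.0085 without 5AC replicate 2 and 0.017 without 5AC replicate 3, range -0.041 to 0.017). With 16 added, the difference between the Myh6 probe sets was -0.091, that between the bright Myh1 probe sets 0.058, and that between Myh2 and Myh6 -0.0053, where Myh2 and Myh6 lay near the floor. The causes were not tested. Of 45 other named genes with a call, 11 lost it in at least 1 of the 13 settings other than the block. Of all probe sets, 1681 to 2859 were higher and 2058 to 2592 lower with an array left out, from 3671 and 3942. Myh2, Myh4, Myh6 and the third Myh1 probe set lay near the floor, where signal limits what can be detected.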

Other observations

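The unconventional myosins, which carry cargo or bind membranes and do not form thick filaments, were measured in 23 of 24 cases. Of these 3 rose, 0 fell and 20 missed the threshold, with a median log2 change of 0.06. The share that rose is near the 11.6% of all genes called higher, so nothing is read from the list as a group. At an unadjusted p under 0.05 in limma 5 were higher and 2 lower. Myo10, the motor of filopodia, rose from 335 to 668 (0.99 ± 0.09, limma adjusted p 0.00406), and its probe sets 1422544_at and 1450650_at were also higher (1.03 and 1.01), while 1450651_at did not pass the threshold (0.29). Myo6, which walks toward the minus end of actin, rose from 20.4 to 50.8 (1.27 ± 0.17, limma adjusted p 0.00889; 0.87 with 16 added), and its probe sets 1421120_at and 1435559_at did not pass the threshold (0.14 and -1.22). Myo16, an unconventional myosin found in the brain, rose from 7.97 to 17.6 (1.02 ± 0.21, limma adjusted p 0.0290; 0.48 with 16 added). The Myo16 call was lost with values below 10 set to 10 and without any one array other than 5AC replicate 1 (limma adjusted p 0.0740 to 0.0935).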
